A study of Mus musculus with 8 samples.

Results

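The transcriptional response of Pkd1 null mouse kidney epithelial cells to the kinase inhibitor THZ1 is described here across 10634 genes. These are the genes with a mean of at least 1 FPKM over the 4 null libraries, out of 18631 genes in the files, where FPKM, the deposited unit, corrects a fragment count for transcript length and library size. Pkd1 encodes polycystin-1, the membrane protein mutated in most autosomal dominant polycystic kidney disease. The null line, labelled Pkd1-/-, received 50 nM THZ1 for 6 h (2 libraries) or DMSO, the solvent (2 libraries). A heterozygous line, labelled Pkd1+/-, was treated in the same way (2 libraries per treatment) and brings the series to 8 libraries. Every group was grown with 3% serum, insulin, transferrin, selenium, thyroid hormone and interferon gamma, per the labels' protocols. Each genotype is 1 cell line, and the labels do not say that replicates came from separate cultures, so the spread behind each p-value is that of libraries and may be technical.

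THZ1 binds CDK7 covalently and also acts on the related kinases CDK12 and CDK13. CDK7, with its partners cyclin H and MAT1, is the kinase of the general transcription factor TFIIH: it phosphorylates the tail of RNA polymerase II as transcription starts, and it activates cell cycle kinases. CDK9 then releases the paused polymerase, and CDK12 and CDK13 keep it productive over gene bodies. When transcription falls throughout a cell, mRNAs with short lives are lost first while stable mRNAs persist, and a sequencing library, which has a fixed total, reports only shares of the mRNA that remains.

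Depth was estimated from the steps of low values at 17.5 to 17.9 M (mega) fragments per null library, and 14245 to 15439 genes were above 0. The replicates correlated across genes at 0.9974 under DMSO and 0.9978 under THZ1 (Pearson's r of log2(FPKM + 1)), and the median gene differed by 0.06 and 0.07 on the log2 scale between them. DMSO replicate 1 and THZ1 replicate 2 listed more genes at 0.01 to 0.2 FPKM, 3378 and 3129 against 2266 and 2586, below the level at which genes were kept. Pkd1 itself had 1.69 and 1.32 FPKM in the DMSO libraries and 1.22 and 1.21 FPKM in the THZ1 libraries, a low but present signal, and it was not called (log2 -0.17 ± 0.10 SE, limma adjusted p = 0.134). Without DMSO replicate 2 it was called lower (-0.28, limma adjusted p = 0.0474). A value per gene cannot show which part of Pkd1 is deleted. Pkd1 also overlaps Tsc2 by 699 bases in the annotation, and Tsc2 had a mean of 18.9 FPKM over the null libraries. Whether the counting used strand is not given in the sources used here, so the low Pkd1 value is uncertain. Of the epithelial markers, Cdh16, keratin genes, Pax2 and Pax8 were expressed, with a summed level of 754 to 800 FPKM over the 8 markers listed, while Epcam and Cdh1 were near 0 (at most 0.42 FPKM). The proximal tubule list was carried by the water channel gene Aqp1 and summed to 63.8 and 71.7 FPKM under DMSO and 105 and 111 under THZ1. Thick limb, collecting duct, endothelial and podocyte lists stayed under 1 FPKM in sum in each library. Smooth muscle markers summed to 231 and 232 FPKM under DMSO and 278 and 264 under THZ1, and fibroblast markers to 17.0 and 18.4 and then 24.9 and 24.5. The smooth muscle sum was carried by Acta2 and Tagln, with Cnn1 at 1.65 to 2.51 FPKM and Myh11 and Des at most 0.07. The fibroblast sum was carried by Col1a1 (15.72 and 17.29, then 23.91 and 23.81). Every other fibroblast marker was under 1 FPKM, and Pdgfrb went from 0.87 and 0.75 to 0.31 and 0.33. The leukocyte list summed to 2.14 and 1.82 FPKM and then 5.20 and 4.21, all but a little of it from Cd68, a lysosomal membrane protein gene, while Ptprc was at most 0.06 and Adgre1 and Cd3e were at 0 in all 4 libraries. In bulk RNA, fewer cells of a type and less RNA per cell cannot be told apart.

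THZ1 changed most of the measured transcriptome of the null cells, and large changes were almost all decreases. A gene was called at a limma adjusted p below 0.05, over all 10634 genes and two-sided. On the values as deposited, 2662 genes (25.0%) were called higher and 5417 (50.9%) lower. At least 2-fold changes were called higher in 44 genes (0.414%) and lower in 913 (8.59%), and 35 genes fell at least 4-fold. The 2 THZ1 libraries lay outside the range of the 2 DMSO libraries in 9310 genes.

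How many genes rose depended on how the libraries were scaled to each other, and no external RNA standard is named in the labels. The median gene was at a log2 change of -0.17 on the deposited values. Median-of-ratios scaling, which sets the typical gene at no change, gave 4039 genes higher (38.0%) and 4153 lower (39.1%), a share of calls that were higher of 49.3% in place of 32.9%. Upper quartile scaling gave 3293 higher and 4766 lower, with a median of -0.09. Equal library totals gave 2061 higher and 6062 lower, with a median of -0.25. Ribosomal protein scaling sets the geometric mean of the cytosolic ribosomal protein genes equal in all libraries. It gave 504 higher (5.62% of calls) and 8460 lower, with a median of -0.53. Under all 5 scalings the same 504 genes (4.74%) were called higher and 4153 (39.1%) lower. These are the increases called by ribosomal protein scaling and the decreases called by median of ratios. Each of the 44 genes that rose and the 913 that fell at least 2-fold on the deposited values was called in the same direction under all 5. A scaling moves all genes by about the same amount, less than 2-fold here, so this follows largely from the size of their changes. By ribosomal protein scaling 19 genes were called at least 2-fold higher. Fold changes below are on the log2(FPKM + 1) scale of the deposited values, which understates changes of low genes. List medians are given under the deposited, median-of-ratios and ribosomal protein scalings. Counts of list members that rose or fell are to be read against the 25.0% and 50.9% over all genes. Counts of members at least 2-fold higher or lower are to be read against 0.414% and 8.59%.

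**Figure D1:**
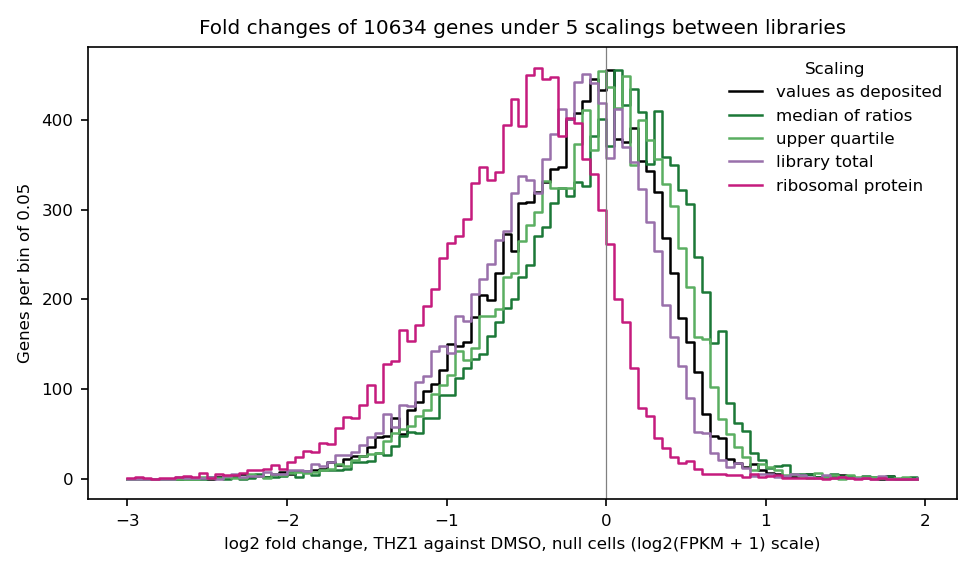
Number of genes (vertical axis) by log2 fold change of THZ1 against DMSO in null cells (horizontal axis), for the same 10634 genes under 5 scalings. The curves have the same skewed shape, with a long tail of decreases, and are displaced along the axis from a median of -0.53 with ribosomal protein scaling to about 0 with the median of ratios.

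The largest decrease among the 15 named by level and size was in Xbp1 (gene ID 22433), which encodes the transcription factor that drives chaperone genes when the endoplasmic reticulum is under stress. Xbp1 had 45.58 and 44.43 FPKM in the DMSO libraries and 5.78 and 7.30 FPKM in the THZ1 libraries (log2 -2.62 ± 0.07 SE, limma adjusted p = 5.12e-11). Both treated libraries were far below both controls, with no overlap. Kcnj16, an inward rectifier potassium channel subunit gene of the renal tubule, fell from 23.60 and 23.39 to 2.87 and 3.19 FPKM (log2 -2.60 ± 0.06 SE, limma adjusted p = 1.73e-11). Rin1, which encodes a Ras effector that activates RAB5, fell from 32.05 and 31.05 to 4.71 and 4.77 FPKM (log2 -2.50 ± 0.06 SE, limma adjusted p = 1.73e-11). Srsf3 (gene ID 20383) encodes a small SR protein that binds mRNA during splicing and export. It had 109.96 and 105.26 FPKM in the DMSO libraries and 22.24 and 24.03 FPKM in the THZ1 libraries (log2 -2.17 ± 0.05 SE, limma adjusted p = 1.73e-11). The pairs of libraries were tight in each group. Btg2, an immediate early gene whose product binds the CCR4-NOT deadenylase, fell from 58.35 and 57.64 to 11.75 and 12.70 FPKM (log2 -2.16 ± 0.05 SE, limma adjusted p = 1.73e-11). Mavs, the mitochondrial adaptor of cytosolic RNA sensing, fell from 28.35 and 28.50 to 5.70 and 6.56 FPKM (log2 -2.05 ± 0.06 SE, limma adjusted p = 9.95e-11). Mus81, a nuclease gene for stalled replication forks, fell from 17.93 and 16.61 to 2.63 and 3.56 FPKM (log2 -2.17 ± 0.10 SE, limma adjusted p = 1.58e-09). The other 8 were the mitochondrial ribosomal protein gene Mrps2 (-2.25), the Golgi coat regulator gene Arfgap1 (-2.12), the exchange factor gene Plekhg2 (-2.29) and Ccdc9b (-2.57), Krcc1 (-2.32), Pimreg (-2.04), Klhdc8a (-2.04) and Sh3tc2 (-2.02). In all 15 the highest limma adjusted p was 1.58e-09 and the groups did not overlap, as the rule for naming them required. Mrps2 overlaps a neighbouring gene in the annotation, and whether the counting used strand is not given in the sources used here, so its value is uncertain.

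Among the increases, Cxcl2 (gene ID 20310), a neutrophil chemokine gene with a short-lived mRNA, was largest by the same rule. It had 4.03 and 3.05 FPKM in the DMSO libraries and 17.16 and 12.50 FPKM in the THZ1 libraries (log2 1.79 ± 0.15 SE, limma adjusted p = 2.64e-07). Its treated replicates differed by more than its controls did. Zfp36, which encodes tristetraprolin, a protein that binds AU-rich elements and promotes mRNA decay, rose from 8.31 and 6.47 to 24.48 and 21.84 FPKM (log2 1.53 ± 0.11 SE, limma adjusted p = 6.59e-08). Icam1, a leukocyte adhesion receptor gene induced by NF-kB, rose from 6.28 and 6.76 to 18.99 and 19.43 FPKM (log2 1.43 ± 0.07 SE, limma adjusted p = 3.92e-09). Junb, a subunit gene of the AP-1 transcription factor, rose from 51.92 and 53.60 to 140.96 and 127.37 FPKM (log2 1.33 ± 0.10 SE, limma adjusted p = 6.29e-08). Polr2a (gene ID 20020) encodes the largest subunit of RNA polymerase II, which carries the tail that CDK7 phosphorylates. Its level was 47.01 and 51.19 FPKM in the DMSO libraries and 121.97 and 124.73 FPKM in the THZ1 libraries (log2 1.31 ± 0.05 SE, limma adjusted p = 2.54e-10). Both treated libraries were well above both controls. Rbm14, a nuclear RNA-binding coactivator gene, rose from 20.75 and 22.27 to 61.41 and 60.98 FPKM (log2 1.47 ± 0.06 SE, limma adjusted p = 5.74e-10). Ago2, the slicing Argonaute of the RNA interference pathway, rose from 9.17 and 11.18 to 24.79 and 24.63 FPKM (log2 1.21 ± 0.09 SE, limma adjusted p = 1e-07). Hipk2, a nuclear kinase gene, rose from 5.35 and 7.51 to 19.57 and 19.19 FPKM (log2 1.47 ± 0.11 SE, limma adjusted p = 1.26e-07). The other 7 were Dcdc2c (1.46), Rbm15 (1.35), which encodes part of the writer complex for N6-methyladenosine, the flavin monooxygenase gene Mical3 (1.26), Tmem245 (1.28), the spindle protein gene Fam83d (1.28), Rbm12 (1.24) and Gon7 (1.22), a subunit gene of the tRNA-modifying KEOPS complex. The highest limma adjusted p of the 15 was 3.4e-07, and all 15 were also called higher under the ribosomal protein scaling. Rbm12 lies over Cpne1 in the annotation, and Rbm15 and Gon7 over other genes, so reads at these loci could have been split between genes. Cpne1 fell (-0.70) and was named for its position after its value was seen.

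**Figure D2:**
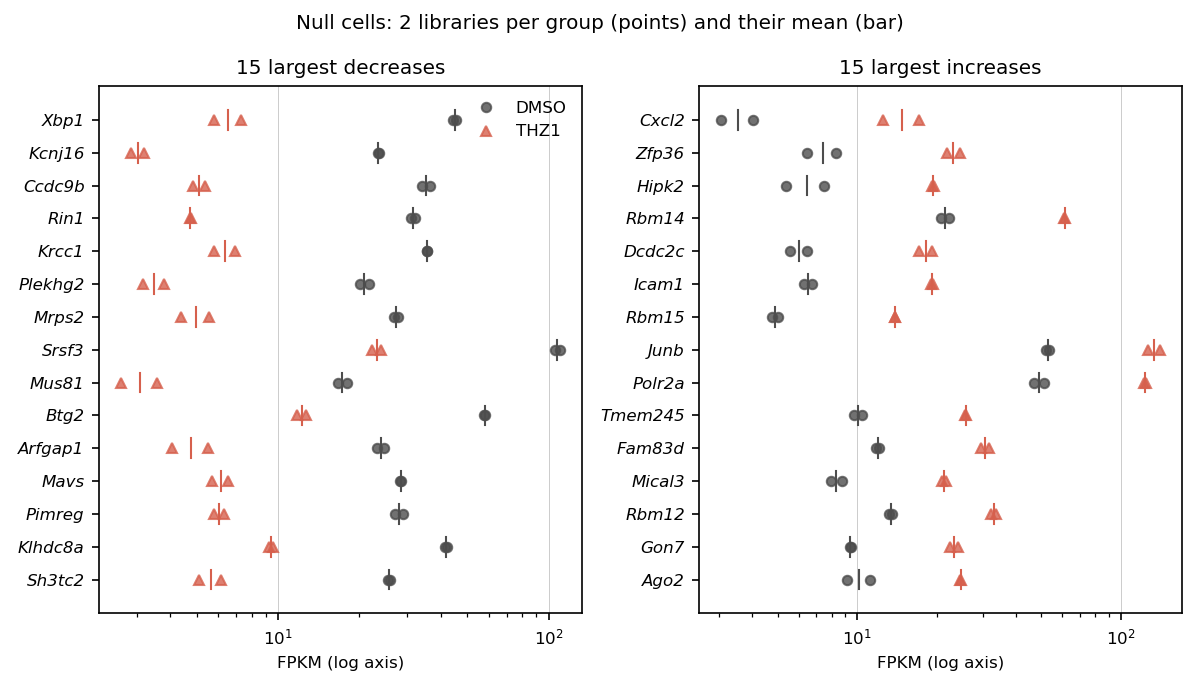
FPKM on a log axis of the 15 named genes with the largest decrease (left) and the 15 with the largest increase (right) in null cells. Circles are the 2 DMSO libraries, triangles the 2 THZ1 libraries and short bars their means, and in each gene the 2 groups are apart.

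The 300-base promoter windows of the named genes, from 250 bases before the annotated start to 50 after it, were read from RefSeq sequence of GRCm38.p6. Windows were found for 8613 of the 10634 genes, and for 13 of the 15 decreases and 14 of the 15 increases. Windows of a pair of increases and a pair of decreases are shown because they hold TATAAA, the TATA box core, or CCGGAAG, the ETS core, 2 of 21 motifs searched. Both are in capitals, and TATAAA occurs in genes of either direction.
Polr2a (chr11:69758584-69758883, minus strand): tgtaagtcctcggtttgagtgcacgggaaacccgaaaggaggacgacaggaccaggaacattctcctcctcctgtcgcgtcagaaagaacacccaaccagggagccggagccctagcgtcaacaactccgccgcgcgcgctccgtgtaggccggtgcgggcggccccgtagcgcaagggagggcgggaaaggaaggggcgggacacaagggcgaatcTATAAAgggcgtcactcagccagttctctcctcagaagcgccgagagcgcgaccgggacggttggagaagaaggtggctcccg
Fam83d (chr2:158767849-158768148, plus strand): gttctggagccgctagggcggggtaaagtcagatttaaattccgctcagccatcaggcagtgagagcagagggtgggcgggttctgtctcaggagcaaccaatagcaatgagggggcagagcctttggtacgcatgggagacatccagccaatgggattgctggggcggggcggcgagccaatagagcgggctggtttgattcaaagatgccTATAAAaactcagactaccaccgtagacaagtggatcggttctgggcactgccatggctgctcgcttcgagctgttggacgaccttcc
Srsf3 (chr17:29032410-29032709, plus strand): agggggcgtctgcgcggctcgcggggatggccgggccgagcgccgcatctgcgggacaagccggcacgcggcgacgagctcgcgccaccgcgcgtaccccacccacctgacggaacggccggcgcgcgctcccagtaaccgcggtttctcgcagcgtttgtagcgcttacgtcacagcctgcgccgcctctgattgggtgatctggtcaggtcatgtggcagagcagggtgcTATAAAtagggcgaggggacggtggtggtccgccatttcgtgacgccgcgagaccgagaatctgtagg
Plekhg2 (chr7:28372613-28372912, minus strand): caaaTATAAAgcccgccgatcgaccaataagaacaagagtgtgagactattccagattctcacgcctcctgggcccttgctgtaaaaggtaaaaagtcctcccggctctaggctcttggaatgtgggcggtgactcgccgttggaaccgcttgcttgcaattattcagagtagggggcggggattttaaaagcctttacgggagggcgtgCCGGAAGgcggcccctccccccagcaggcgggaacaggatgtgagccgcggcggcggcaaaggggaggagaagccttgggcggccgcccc
TATAAA began 33 bases before the annotated start in Polr2a, 38 in Fam83d and 18 in Srsf3. In Plekhg2 CCGGAAG began 40 bases before the start and TATAAA far upstream, at 246. Across the 14 named increases with a window, 4 genes held TATAAA and 2 held CCGGAAG on either strand, and across the named decreases 3 and 2 did. Over all genes with a window, TATAAA was found in 8.07%, in 8.09% of the 742 genes that fell at least 2-fold and in 12.5% of the 408 called higher under all 5 scalings. CCGGAAG was found in 22.2% of all, in 26.4% of those that fell and in 15.4% of those that rose. GGGCGG, the GC box, was found in 71.7%, 65.8% and 73.3% in that order. A match of letters is a description of the window and not a measured binding site.

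Transcripts of CDK7 and its 2 partners fell on the deposited values. Those of polymerase II subunits moved in both directions, those of Cdk12 and Cdk13 rose, and Cdk9 was not called. Cdk7 had 8.30 and 7.43 FPKM in the DMSO libraries and 5.07 and 5.29 FPKM in the THZ1 libraries (log2 -0.52 ± 0.08 SE, limma adjusted p = 6.28e-05). Its cyclin, Ccnh, fell from 9.88 and 9.36 to 7.59 and 7.59 FPKM (log2 -0.31 ± 0.07 SE, limma adjusted p = 0.00151). This was a call that median-of-ratios scaling did not keep (limma adjusted p = 0.083). Mnat1, the MAT1 gene, fell from 17.10 and 18.04 to 11.94 and 12.60 FPKM (log2 -0.48 ± 0.06 SE, limma adjusted p = 5.67e-06). All 3 genes of the kinase were lower in both treated libraries, and Mnat1 overlaps Trmt5, which also fell (-1.17, named for its position after its value was seen). Of the 10 genes of CDK7 and TFIIH, 1 was called higher, 6 lower and 3 neither (median log2 -0.34 as deposited, -0.18 by median of ratios, -0.69 by ribosomal protein). The steepest decrease was in the core subunit gene Gtf2h3 (-1.15 ± 0.08 SE). The increase was in the small subunit gene Gtf2h5 (0.56 ± 0.06 SE). Cdk12 rose from 9.62 and 10.04 to 12.90 and 14.42 FPKM (log2 0.44 ± 0.08 SE, limma adjusted p = 0.000313). Cdk13 rose from 10.23 and 9.48 to 13.67 and 14.14 FPKM (log2 0.46 ± 0.06 SE, limma adjusted p = 2.5e-05). Neither was called by ribosomal protein scaling (limma adjusted p = 0.51 and 0.281). Cdk9 had 26.07 and 25.93 FPKM in the DMSO libraries and 26.47 and 28.42 FPKM in the THZ1 libraries and was not called (log2 0.07 ± 0.05 SE, limma adjusted p = 0.233), whereas median-of-ratios scaling called it higher (0.26) and ribosomal protein scaling put it at -0.31. Hexim1, which encodes the inhibitor that holds CDK9 inactive in the 7SK particle, rose from 14.98 and 14.87 to 22.65 and 21.45 FPKM (log2 0.53 ± 0.06 SE, limma adjusted p = 2.44e-06).

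Of 33 pause release and elongation regulators, 14 rose and 10 fell (median log2 0.10 as deposited, 0.28 by median of ratios, -0.29 by ribosomal protein), a larger share of increases than over all genes. Supt5, a subunit gene of the pausing factor DSIF, rose (0.51 ± 0.04 SE), while Nelfe of the negative elongation factor (-1.09 ± 0.05 SE) and Ell2 of the super elongation complex (-0.83 ± 0.07 SE) fell. Among 13 polymerase II subunit genes, 5 rose and 6 fell (median log2 -0.14 as deposited, 0.04 by median of ratios, -0.53 by ribosomal protein). Polr2a stood apart from the others, with Polr2b at 0.39 (-0.0027 by ribosomal protein scaling), Polr2c at -0.59 and Polr2m at -0.64. The general factor and TFIID list, with 9 higher and 10 lower of 23 (median log2 -0.07 as deposited, 0.10 by median of ratios, -0.42 by ribosomal protein), included the TATA-binding protein gene Tbp (-0.76), Taf6 (-1.06) and Taf13 (0.77). Taf6 overlaps a neighbouring gene, so its value is uncertain. Of 32 Mediator genes, which link activators to the polymerase, 9 (28.1%) rose and 16 (50.0%) fell, near the shares over all genes. The median log2 was -0.16 as deposited, 0.01 by median of ratios and -0.53 by ribosomal protein. Med8 was at -1.04 and Med25 at 0.43.

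Genes for RNA-binding proteins held some of the largest changes in both directions. Of 35 SR protein, hnRNP and CLK kinase genes, 11 (31.4%) rose and 19 (54.3%) fell, against 25.0% and 50.9% over all genes. At least 2-fold decreases were called in 4 of the 35, against 8.59% over all genes. The median log2 was -0.17 as deposited, 0.02 by median of ratios and -0.57 by ribosomal protein. Besides Srsf3, the AU-rich element binding protein genes Hnrnpd (from 23.32 and 23.51 to 6.63 and 6.96 FPKM, log2 -1.65 ± 0.05 SE, limma adjusted p = 1.19e-10) and Hnrnpdl (-1.31 ± 0.05 SE) fell, against the rise of Rbm14. Hnrnpdl overlaps a neighbouring gene in the annotation. In the list for mRNA decay and deadenylation, 7 of 29 rose and 15 fell (median log2 -0.17 as deposited, -0.0031 by median of ratios, -0.53 by ribosomal protein), close to the shares over all genes. The poly(A) nuclease gene Pan2 fell from 10.43 and 10.53 to 3.29 and 3.67 FPKM (log2 -1.36 ± 0.07 SE, limma adjusted p = 3.76e-09). The tristetraprolin relative Zfp36l2 rose (0.73 ± 0.05 SE) with Zfp36.

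Immediate early genes, which cells induce within minutes of a stimulus and whose mRNAs are short-lived, parted widely: 13 of 31 rose and 11 fell (median log2 0.05 as deposited, 0.22 by median of ratios, -0.30 by ribosomal protein). At least 2-fold changes were called higher in 3 and lower in 5 of the 31, against 0.414% and 8.59% over all genes. Fos, the partner gene of Junb in AP-1, had 2.06 and 1.85 FPKM in the DMSO libraries and 12.76 and 9.60 FPKM in the THZ1 libraries (log2 2.03 ± 0.11 SE, limma adjusted p = 7.07e-09). Fos was at a low level in controls and higher in each treated library. Rhob, a small GTPase gene, fell from 151.12 and 147.46 to 68.64 and 72.96 FPKM (log2 -1.07 ± 0.05 SE, limma adjusted p = 1.58e-09). Ccn2, a matricellular growth factor gene, fell from 699.12 and 675.65 to 394.14 and 387.11 FPKM (log2 -0.81 ± 0.04 SE, limma adjusted p = 5.06e-09). Myc, a short-lived transcript often followed in CDK7 studies, had 40.47 and 41.20 FPKM in the DMSO libraries and 43.01 and 40.98 FPKM in the THZ1 libraries and was not called (log2 0.04 ± 0.05 SE, limma adjusted p = 0.458). Median-of-ratios scaling called Myc higher at 0.22, and ribosomal protein scaling put it at -0.35. The Myc, Max and Mxd network list, with 11 tested genes, had 1 member higher and 6 lower (median log2 -0.18 as deposited, 0.00 by median of ratios, -0.57 by ribosomal protein), with Mlx at -0.82, Mnt at -0.54 and Mlxip at 0.45.

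Inflammatory genes moved in both directions. Of 29 genes, 11 rose and 13 fell (median log2 -0.17 as deposited, 0.01 by median of ratios, -0.53 by ribosomal protein). Rela, the main activating subunit of NF-kB, had 80.79 and 82.73 FPKM in the DMSO libraries and 31.70 and 35.36 FPKM in the THZ1 libraries (log2 -1.26 ± 0.06 SE, limma adjusted p = 1.51e-09). Nfkb2, a subunit gene of the non-canonical NF-kB pathway, fell from 59.20 and 62.25 to 30.14 and 31.02 FPKM (log2 -0.97 ± 0.05 SE, limma adjusted p = 4.14e-09). The chemokine gene Cxcl10 fell from 61.67 and 54.75 to 29.99 and 27.93 FPKM (log2 -0.98 ± 0.06 SE, limma adjusted p = 1.53e-08). These 3 moved against Icam1 and Cxcl2, which had at least 2-fold increases. The medium of both groups held interferon gamma. Of 26 interferon response genes 4 (15.4%) rose and 16 (61.5%) fell, against 25.0% and 50.9% over all genes. The median log2 was -0.25 as deposited, -0.10 by median of ratios and -0.61 by ribosomal protein. Ifit3 (-0.61 ± 0.05 SE) and the peptide transporter gene Tap1 (-0.58 ± 0.05 SE) fell, while the light chain gene of MHC class I, B2m, rose from 1429.22 and 1348.92 to 2056.87 and 1934.53 FPKM (log2 0.52 ± 0.05 SE, limma adjusted p = 8.72e-07).

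Atf4 and several of its targets fell. In the integrated stress response list as a whole, the share that fell was near that over all genes and the share that rose was below it. Atf4, which encodes the factor translated when initiation is limited, had 200.43 and 192.87 FPKM in the DMSO libraries and 69.90 and 70.80 FPKM in the THZ1 libraries (log2 -1.47 ± 0.04 SE, limma adjusted p = 5.12e-11). Chac1, a glutathione-degrading enzyme gene and a target of ATF4, fell from 19.31 and 18.55 to 0.65 and 1.01 FPKM (log2 -3.45 ± 0.09 SE, limma adjusted p = 2.56e-11). Chac1 had the steepest fall of any listed gene, and neither treated library exceeded 1.01 FPKM. The pseudokinase gene Trib3 fell from 7.21 and 8.31 to 0.86 and 0.80 FPKM (log2 -2.26 ± 0.08 SE, limma adjusted p = 3.86e-10). Stc2, a secreted hormone gene, fell (-1.04 ± 0.06 SE). Over the list, 3 of 22 (13.6%) rose and 12 (54.5%) fell (median log2 -0.24 as deposited, -0.06 by median of ratios, -0.63 by ribosomal protein), against 25.0% and 50.9% over all genes. At least 2-fold decreases were called in 5 of the 22, against 8.59% over all genes. Ppp1r15a, the phosphatase subunit gene that ends the response, rose from 15.99 and 16.90 to 29.19 and 26.27 FPKM (log2 0.72 ± 0.07 SE, limma adjusted p = 1.57e-06).

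The unfolded protein response list moved differently from its transcription factor. Although Xbp1 fell by over 2 on the log2 scale, 16 of 26 members rose and 9 fell on the deposited values (median log2 0.16 as deposited, 0.34 by median of ratios, -0.23 by ribosomal protein). These counts depended on the scaling. Library totals gave 9 higher and 9 lower, and ribosomal protein scaling gave 1 higher and 21 lower. The protein disulfide isomerase gene Pdia6, whose product folds secreted proteins, rose from 198.98 and 199.34 to 259.73 and 249.84 FPKM as deposited and was at -0.04 by ribosomal protein scaling. The members that fell included those of degradation from the endoplasmic reticulum, the ligase gene Syvn1 (-0.85 ± 0.05 SE), its partner Sel1l (-0.60 ± 0.05 SE) and Herpud1 (-0.70 ± 0.05 SE). Of 28 heat shock and chaperone genes, 10 rose and 9 fell (median log2 0.05 as deposited, 0.23 by median of ratios, -0.35 by ribosomal protein). Hspa8, the constitutive HSP70 gene and one of the most abundant transcripts, fell from 1492.96 and 1423.95 to 819.16 and 867.80 FPKM (log2 -0.79 ± 0.05 SE, limma adjusted p = 1.73e-08). The cochaperone genes Bag1 (0.52 ± 0.04 SE) and Bag3 (0.54 ± 0.05 SE) rose.

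Genes of cell death were likewise divided. Mcl1, a short-lived survival gene of the BCL2 family, had 73.73 and 73.15 FPKM in the DMSO libraries and 50.56 and 53.59 FPKM in the THZ1 libraries (log2 -0.49 ± 0.04 SE, limma adjusted p = 3.66e-07). Bid, which encodes the death activator that caspase-8 cleaves, fell from 37.85 and 34.08 to 7.99 and 10.13 FPKM (log2 -1.88 ± 0.08 SE, limma adjusted p = 1.59e-09). Bcl2l1, which encodes the survival protein BCL-XL, rose from 119.39 and 122.46 to 181.41 and 170.69 FPKM (log2 0.54 ± 0.04 SE, limma adjusted p = 1.42e-07). In this family 3 of 12 (25.0%) rose and 6 (50.0%) fell, close to the 25.0% and 50.9% over all genes. The median log2 was -0.12 as deposited, 0.05 by median of ratios and -0.50 by ribosomal protein. Of 27 p53 targets, 10 rose and 13 fell (median log2 0.07 as deposited, 0.26 by median of ratios, -0.32 by ribosomal protein). Pidd1 (-1.18 ± 0.07 SE), Phlda3 (-1.06 ± 0.06 SE) and the nuclease gene Aen (-1.02 ± 0.04 SE) fell, against a rise of Perp, a desmosomal membrane protein gene (0.79 ± 0.05 SE).

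DNA repair genes fell as a group to a larger share than all genes. Of 41 genes, 30 fell and 1 rose (median log2 -0.43 as deposited, -0.28 by median of ratios, -0.75 by ribosomal protein), set against 50.9% and 25.0% over all genes, and 22 fell under median-of-ratios scaling. Nbn and Rad50, which encode subunits of the complex that senses double-strand breaks, fell from 10.28 and 10.70 to 4.36 and 4.48 FPKM (log2 -1.08 ± 0.06 SE, limma adjusted p = 1.25e-08) and from 12.95 and 12.02 to 4.67 and 5.62 FPKM (log2 -1.14 ± 0.08 SE, limma adjusted p = 4e-08). The recombination gene Rad51c fell from 3.63 and 3.43 to 0.96 and 0.67 FPKM (log2 -1.32 ± 0.09 SE, limma adjusted p = 3.47e-08). Rad51d fell as well (-1.10 ± 0.08 SE). Bard1, the partner gene of Brca1, was the exception, at 0.19 (limma adjusted p = 0.0429) and -0.09 by ribosomal protein scaling, and leaving out DMSO replicate 1, DMSO replicate 2 or THZ1 replicate 1 ended its call (limma adjusted p = 0.0733, 0.158 and 0.215).

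Among genes of the cell cycle, those of mitosis were called lower to a larger share than all genes, and those of replication to a share nearer the 50.9% over all genes. Of 40 replication genes, 24 (60.0%) fell and 6 rose (median log2 -0.24 as deposited, -0.06 by median of ratios, -0.63 by ribosomal protein). The clamp loader gene Rfc4 (-1.16 ± 0.06 SE), the primase gene Prim1 (-0.98 ± 0.06 SE) and Mcm10 (-1.04 ± 0.08 SE) fell, and the ligase gene Lig1 was at 0.38 as deposited and -0.01 by ribosomal protein scaling. Of 40 mitosis and spindle genes, 30 (75.0%) fell and 2 rose (median log2 -0.34 as deposited, -0.15 by median of ratios, -0.73 by ribosomal protein). Cdc25b, the phosphatase gene that starts mitosis, fell from 14.92 and 13.78 to 4.35 and 4.67 FPKM (log2 -1.48 ± 0.06 SE, limma adjusted p = 7.51e-10). Ube2c, the ubiquitin-conjugating enzyme gene of the anaphase-promoting complex, fell from 94.90 and 93.42 to 36.07 and 38.98 FPKM (log2 -1.31 ± 0.06 SE, limma adjusted p = 2.63e-09). Cyclin A2 (Ccna2, -0.90 ± 0.04 SE) and the mitotic transcription factor gene Foxm1 (-0.92 ± 0.05 SE) fell by less. In the list of G1 cyclins, kinases and inhibitors, 16 of 25 fell and 6 rose (median log2 -0.36 as deposited, -0.19 by median of ratios, -0.71 by ribosomal protein). The 2 inhibitor genes of one locus went opposite ways, with Cdkn2a rising from 61.72 and 60.06 to 94.08 and 94.84 FPKM (log2 0.63 ± 0.05 SE, limma adjusted p = 6.83e-08) and Cdkn2b falling from 35.82 and 36.37 to 20.75 and 22.88 FPKM (log2 -0.70 ± 0.05 SE, limma adjusted p = 1.18e-07). E2f4 (-0.91 ± 0.05 SE) and Cdk4 (-0.49 ± 0.04 SE) fell.

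Genes of the zinc finger and ZBTB families fell to a larger share than the 50.9% over all genes. Of 274 tested genes named Zfp with a number, most of them encoding DNA-binding zinc finger proteins, 193 fell and 28 rose (median log2 -0.48 as deposited, -0.34 by median of ratios, -0.80 by ribosomal protein). Of the 274, 52 fell at least 2-fold, against 8.59% over all genes. The name also takes in Zfp36, which binds RNA. Zfp397 fell from 16.75 and 15.17 to 2.13 and 2.40 FPKM (log2 -2.38 ± 0.08 SE, limma adjusted p = 1.78e-10). Zfp90 fell from 7.59 and 7.16 to 1.22 and 1.28 FPKM (log2 -1.90 ± 0.08 SE, limma adjusted p = 8.92e-10). Among 36 genes of the related ZBTB family, 28 fell and 5 rose (median log2 -0.50 as deposited, -0.36 by median of ratios, -0.82 by ribosomal protein). Zbtb22 fell from 11.48 and 11.30 to 2.21 and 2.69 FPKM (log2 -1.85 ± 0.09 SE, limma adjusted p = 1.96e-09) and Zbtb4 from 8.36 and 8.88 to 2.24 and 2.49 FPKM (log2 -1.52 ± 0.08 SE, limma adjusted p = 3.29e-09), while Zbtb44 rose (0.69 ± 0.07 SE). Both families lay below the median gene under each of the 3 scalings given.

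Kidney and epithelial transcription factors also leaned lower, with 14 of 19 falling and 2 rising (median log2 -0.43 as deposited, -0.25 by median of ratios, -0.79 by ribosomal protein). Eya2, which encodes a coactivator of homeobox factors in kidney development, fell from 13.79 and 13.11 to 2.06 and 1.72 FPKM (log2 -2.32 ± 0.09 SE, limma adjusted p = 4.72e-10). Pax2, a factor required for the kidney lineage, had 43.80 and 46.15 FPKM in the DMSO libraries and 22.69 and 25.03 FPKM in the THZ1 libraries (log2 -0.89 ± 0.07 SE, limma adjusted p = 2.34e-07). Pax8, its relative, fell by less, from 77.20 and 77.72 to 47.72 and 50.76 FPKM (log2 -0.64 ± 0.04 SE, limma adjusted p = 3.47e-08). Both stayed well expressed in each treated library. Of 29 Hox genes, 12 rose and 10 fell (median log2 0.02 as deposited, 0.20 by median of ratios, -0.28 by ribosomal protein), with Hoxc6 (1.10 ± 0.07 SE) and Hoxc10 (0.90 ± 0.05 SE) rising and Hoxd8 (-1.16 ± 0.06 SE) falling. Histone-modifying enzyme genes had 13 of 50 higher and 21 lower (median log2 -0.05 as deposited, 0.14 by median of ratios, -0.44 by ribosomal protein). The acetyltransferase gene Kat5 fell from 25.93 and 26.56 to 6.36 and 8.0 FPKM (log2 -1.74 ± 0.08 SE, limma adjusted p = 1.22e-09), and Kat8 fell from 8.79 and 9.47 to 2.09 and 2.12 FPKM (log2 -1.71 ± 0.09 SE, limma adjusted p = 5.42e-09). The methyltransferase gene Setdb1 fell (-1.24 ± 0.06 SE), while Hdac1 rose from 67.39 and 67.26 to 99.58 and 101.64 FPKM (log2 0.57 ± 0.04 SE, limma adjusted p = 5.31e-08). Kruppel-like factors had 3 of 11 higher and 5 lower (median log2 0.01 as deposited, 0.19 by median of ratios, -0.38 by ribosomal protein), with Klf2 at -1.22 and Klf4 at 0.72. The clock genes Per1 (-0.61), Per2 (-1.01) and Per3 (-0.80) fell and Nr1d1 rose (0.57) in a list with 3 higher and 9 lower of 17 (median log2 -0.15 as deposited, 0.03 by median of ratios, -0.53 by ribosomal protein).

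Genes of the primary cilium, the organelle that carries the polycystins, had, on the deposited values, the lowest median of the lists with 10 or more tested members. Of 37 genes for ciliary transport and the transition zone, 28 fell and 2 rose (median log2 -0.50 as deposited, -0.34 by median of ratios, -0.85 by ribosomal protein). At least 2-fold decreases were called in 8 of the 37, against 8.59% over all genes. Ift81, which encodes a tubulin-binding subunit of the transport train, fell from 13.72 and 12.51 to 4.14 and 4.43 FPKM (log2 -1.42 ± 0.07 SE, limma adjusted p = 1.87e-09). Ift122, of the return train, fell from 12.43 and 13.41 to 4.88 and 4.92 FPKM (log2 -1.24 ± 0.07 SE, limma adjusted p = 5.42e-09). Bbs1, of the complex that sorts ciliary membrane proteins, had 5.66 and 5.56 FPKM in the DMSO libraries and 0.92 and 1.18 FPKM in the THZ1 libraries (log2 -1.69 ± 0.08 SE, limma adjusted p = 2.04e-09). Its treated libraries were both near the lower limit for keeping a gene. Pkd2, which encodes polycystin-2, the channel partner of polycystin-1, had 51.64 and 53.36 FPKM in the DMSO libraries and 35.43 and 34.52 FPKM in the THZ1 libraries (log2 -0.57 ± 0.05 SE, limma adjusted p = 3.89e-07). Among all 20 polycystin and cyst-associated genes 6 rose and 6 fell (median log2 0.00 as deposited, 0.19 by median of ratios, -0.37 by ribosomal protein). Ift88, whose loss gives cysts, fell (-0.70 ± 0.08 SE), as did the glycosylation gene Alg8 (-0.60 ± 0.06 SE), while Prkcsh, the glucosidase subunit gene of polycystic liver disease, rose from 104.96 and 104.95 to 152.41 and 143.99 FPKM (log2 0.49 ± 0.05 SE, limma adjusted p = 8.72e-07).

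Growth factor signalling genes moved unevenly. Egfr, the EGF receptor gene, rose from 25.08 and 26.96 to 43.64 and 45.95 FPKM (log2 0.76 ± 0.06 SE, limma adjusted p = 7.37e-08). Erbb2, its coreceptor gene, fell from 13.22 and 13.86 to 6.75 and 7.33 FPKM (log2 -0.86 ± 0.06 SE, limma adjusted p = 4.97e-08). Dusp5, a nuclear ERK phosphatase gene, rose (0.89 ± 0.09 SE) and Spred3, a Ras inhibitor gene, fell (-1.05 ± 0.08 SE), in a list with 7 higher and 5 lower of 17 (median log2 0.14 as deposited, 0.27 by median of ratios, -0.23 by ribosomal protein). Of 24 YAP and TAZ genes and targets, 7 rose and 11 fell (median log2 -0.10 as deposited, 0.08 by median of ratios, -0.46 by ribosomal protein). Ankrd1, a target used as a readout of YAP, fell from 966.81 and 907.93 to 314.18 and 317.80 FPKM (log2 -1.56 ± 0.05 SE, limma adjusted p = 6.35e-11). Lats2, the kinase gene that restrains YAP, rose from 30.12 and 29.20 to 60.14 and 59.24 FPKM (log2 0.99 ± 0.05 SE, limma adjusted p = 2.24e-09). Of 30 TGF-beta and matrix genes 13 rose and 7 fell (median log2 0.11 as deposited, 0.29 by median of ratios, -0.27 by ribosomal protein). Tgfbr2, a receptor gene, fell from 113.83 and 116.95 to 68.68 and 72.73 FPKM (log2 -0.70 ± 0.04 SE, limma adjusted p = 1.39e-08). The feedback inhibitor gene Smad7 rose (0.75 ± 0.07 SE). The fibroblast and smooth muscle sums given above, carried by Col1a1 and by Acta2 and Tagln, were also higher under THZ1. The part of these markers in this list was not tested. Among the keratins tested, Krt80 fell from 23.13 and 23.88 to 5.49 and 6.10 FPKM (log2 -1.85 ± 0.06 SE, limma adjusted p = 1.19e-10), the largest change of 7.

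On the deposited values more energy metabolism genes rose than fell. Of 75 oxidative phosphorylation subunit genes, 61 rose and 1 fell on the deposited values (median log2 0.38 as deposited, 0.57 by median of ratios, -0.02 by ribosomal protein), so the median reached 0 only when the libraries were scaled to ribosomal protein genes. Atp5e, a small subunit gene of ATP synthase, rose from 113.18 and 116.82 to 204.74 and 188.14 FPKM (log2 0.77 ± 0.05 SE, limma adjusted p = 1.71e-08). Cox6b1, of cytochrome oxidase, rose from 254.85 and 246.00 to 382.73 and 367.77 FPKM (log2 0.58 ± 0.04 SE, limma adjusted p = 5.76e-08). Ndufb6, of complex I, rose (0.65 ± 0.05 SE). Ndufs1, the largest complex I subunit gene, fell (-0.22 ± 0.05 SE). Of 22 glycolysis genes 12 rose and 6 fell (median log2 0.24 as deposited, 0.42 by median of ratios, -0.10 by ribosomal protein). Pkm, the pyruvate kinase gene, rose from 529.12 and 553.44 to 810.29 and 787.15 FPKM (log2 0.56 ± 0.04 SE, limma adjusted p = 1.33e-07). Gpi1 (0.53 ± 0.04 SE) and the lactate carrier gene Slc16a1 (0.66 ± 0.06 SE) rose with it. Hk2, the inducible hexokinase gene, fell from 24.00 and 24.50 to 16.23 and 16.08 FPKM (log2 -0.56 ± 0.05 SE, limma adjusted p = 5.5e-07). The TCA cycle had 13 of 26 higher and 3 lower (median log2 0.12 as deposited, 0.30 by median of ratios, -0.27 by ribosomal protein), with Mdh1 at 0.45 and Ogdh at -0.49. Fatty acid oxidation had 11 of 21 higher and 6 lower (median log2 0.16 as deposited, 0.35 by median of ratios, -0.22 by ribosomal protein). The carnitine transfer genes Cpt2 (from 10.03 and 10.79 to 3.64 and 4.34 FPKM, log2 -1.20 ± 0.08 SE, limma adjusted p = 5e-08) and Cpt1a (-0.47 ± 0.06 SE) were among those that fell.

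Biosynthetic and antioxidant genes moved unevenly. Of 24 cholesterol synthesis genes, 17 fell and 2 rose (median log2 -0.32 as deposited, -0.14 by median of ratios, -0.72 by ribosomal protein). Insig1, a sterol-sensing regulator gene, fell from 42.46 and 41.76 to 19.43 and 21.70 FPKM (log2 -1.0013 ± 0.05 SE, limma adjusted p = 3.59e-09). The enzyme gene Msmo1 (-0.66 ± 0.04 SE) and Srebf1 (-0.55 ± 0.05 SE) fell. In the list for glutamine, serine, one-carbon and nucleotide pathways 9 rose and 12 fell of 32 (median log2 0.04 as deposited, 0.23 by median of ratios, -0.35 by ribosomal protein). Pfas, of purine synthesis, fell from 9.36 and 9.36 to 3.52 and 3.52 FPKM (log2 -1.20 ± 0.06 SE, limma adjusted p = 3.98e-09), and Umps, of pyrimidine synthesis, fell (-0.84 ± 0.05 SE). Glud1, the glutamate dehydrogenase gene, rose (0.51 ± 0.04 SE). Of 27 glutathione and NRF2 genes 19 rose and 8 fell (median log2 0.28 as deposited, 0.47 by median of ratios, -0.12 by ribosomal protein), among them the glutathione synthesis gene Gclc (0.59 ± 0.04 SE) and thioredoxin (Txn1, 0.51 ± 0.04 SE). Srxn1, which encodes the enzyme that repairs peroxiredoxins, went against them and fell from 37.41 and 36.87 to 11.06 and 11.24 FPKM (log2 -1.65 ± 0.04 SE, limma adjusted p = 4.1e-11). Keap1, the NRF2 inhibitor gene, fell (-0.85 ± 0.06 SE).

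The cytosolic and mitochondrial ribosomes parted. Every one of the 77 tested cytosolic ribosomal protein genes rose on the deposited values, against 25.0% of all genes, and all 77 rose by median of ratios, while scaling to these genes left 12 higher and 14 lower, by construction near a median of 0 (median log2 0.38 as deposited, 0.57 by median of ratios, -0.02 by ribosomal protein). Rps28 rose from 485.26 and 509.18 to 857.02 and 878.52 FPKM (log2 0.80 ± 0.06 SE, limma adjusted p = 9.66e-08). Rpl41 rose from 1276.28 and 1305.07 to 2098.41 and 2075.44 FPKM (log2 0.69 ± 0.05 SE, limma adjusted p = 5.56e-08). Rpl38 rose from 361.98 and 345.62 to 536.48 and 518.19 FPKM (log2 0.57 ± 0.04 SE, limma adjusted p = 8.11e-08). These families have many near-identical copies in the genome, so the values depend on how the authors assigned shared reads. Of 77 mitochondrial ribosomal protein genes 13 rose and 45 fell (median log2 -0.20 as deposited, -0.02 by median of ratios, -0.59 by ribosomal protein), near the shares over all genes. At least 2-fold decreases were called in 5 of these 77, against 8.59% over all genes. Besides Mrps2, Mrpl41 fell from 12.57 and 11.26 to 4.77 and 4.49 FPKM (log2 -1.20 ± 0.07 SE, limma adjusted p = 1.42e-08) and Mrpl43 fell from 52.20 and 52.04 to 22.65 and 24.21 FPKM (log2 -1.12 ± 0.06 SE, limma adjusted p = 1.06e-08), while Mrps21 rose from 109.33 and 108.62 to 151.71 and 150.56 FPKM (log2 0.47 ± 0.04 SE, limma adjusted p = 1.4e-07). Mrpl43 overlaps Twnk by 780 bases in the annotation, and Twnk also fell (-1.08), so the Mrpl43 value is uncertain. The genes that build ribosomes fell: 34 of 40 for ribosome biogenesis and RNA polymerase I were called lower and 2 higher (median log2 -0.42 as deposited, -0.24 by median of ratios, -0.79 by ribosomal protein). Ubtf, the RNA polymerase I factor gene, fell from 30.25 and 31.65 to 14.50 and 16.09 FPKM (log2 -0.97 ± 0.06 SE, limma adjusted p = 8.82e-09). The assembly factor genes Bysl (-1.18 ± 0.06 SE) and Utp14a (-0.99 ± 0.06 SE) fell. Bop1 was one of the exceptions, at 0.26 as deposited and -0.13 by ribosomal protein scaling.

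Genes of protein breakdown and tRNA charging were mixed. Of 37 proteasome genes 16 rose and 10 fell (median log2 0.07 as deposited, 0.26 by median of ratios, -0.32 by ribosomal protein), with Psmd10 at -0.55 and Psmd2 at 0.39 (-0.01 by ribosomal protein scaling). Aminoacyl-tRNA synthetases, which charge tRNAs, had 3 of 20 higher and 13 lower (median log2 -0.19 as deposited, -0.0027 by median of ratios, -0.58 by ribosomal protein), with Iars (-0.72 ± 0.05 SE), Farsb (-0.70 ± 0.05 SE) and Dars (-0.65 ± 0.04 SE) falling. Of 36 lysosomal hydrolase and proton pump genes 24 rose and 7 fell (median log2 0.28 as deposited, 0.46 by median of ratios, -0.12 by ribosomal protein). Ctsd, the cathepsin D gene, rose from 725.76 and 739.23 to 1150.18 and 1076.71 FPKM (log2 0.60 ± 0.04 SE, limma adjusted p = 6.95e-08). The membrane protein gene Lamp1 rose from 388.32 and 368.98 to 579.69 and 550.07 FPKM (log2 0.58 ± 0.04 SE, limma adjusted p = 1.21e-07). Psap (0.54 ± 0.04 SE) and Ctsb (0.58 ± 0.05 SE) rose. Tfe3, a transcription factor gene for lysosomal genes, fell from 24.01 and 24.64 to 16.08 and 15.49 FPKM (log2 -0.59 ± 0.05 SE, limma adjusted p = 3.43e-07). Cd68, a lysosomal protein gene and the one leukocyte marker above 1 FPKM, rose from 2.09 and 1.72 to 4.82 and 3.94 FPKM (log2 0.89 ± 0.10 SE, limma adjusted p = 5.23e-06), with the defining leukocyte markers at or near 0 as given above.

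**Figure D3:**
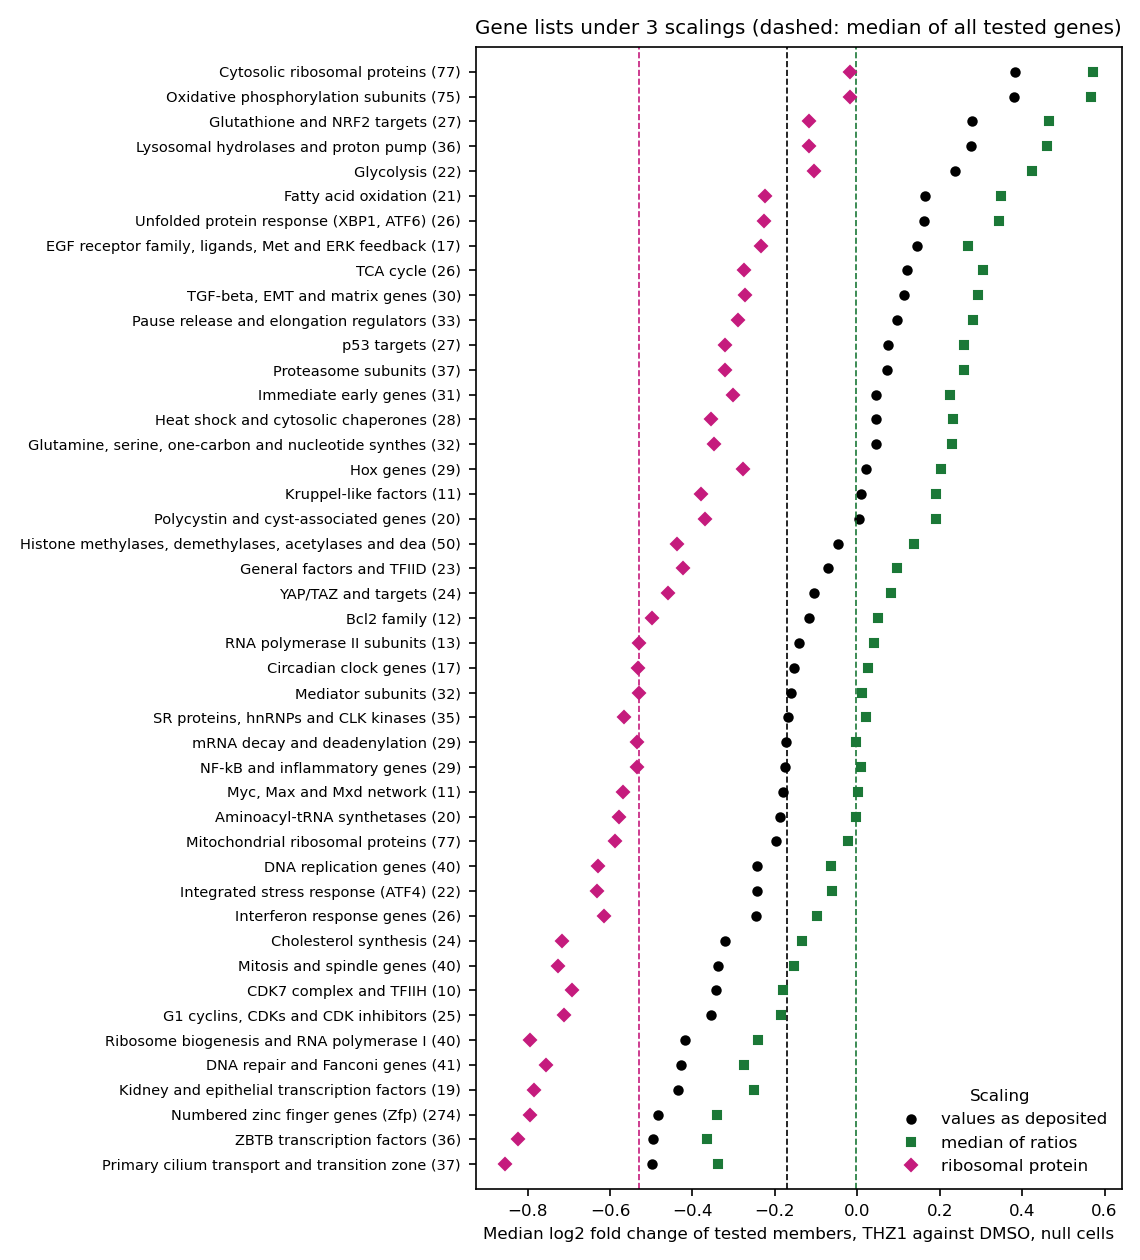
Median log2 fold change (horizontal axis) of the tested members of each gene list with 10 or more (number in brackets), THZ1 against DMSO in null cells, as deposited (circles), by median of ratios (squares) and by ribosomal protein scaling (diamonds), with dashed lines at the median of all 10634 genes under each. The order from cytosolic ribosomal proteins (0.38 as deposited) to cilium genes (-0.50) is much the same under each, but the side of 0 on which most lists fall is set by the scaling.

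**Figure D4:**
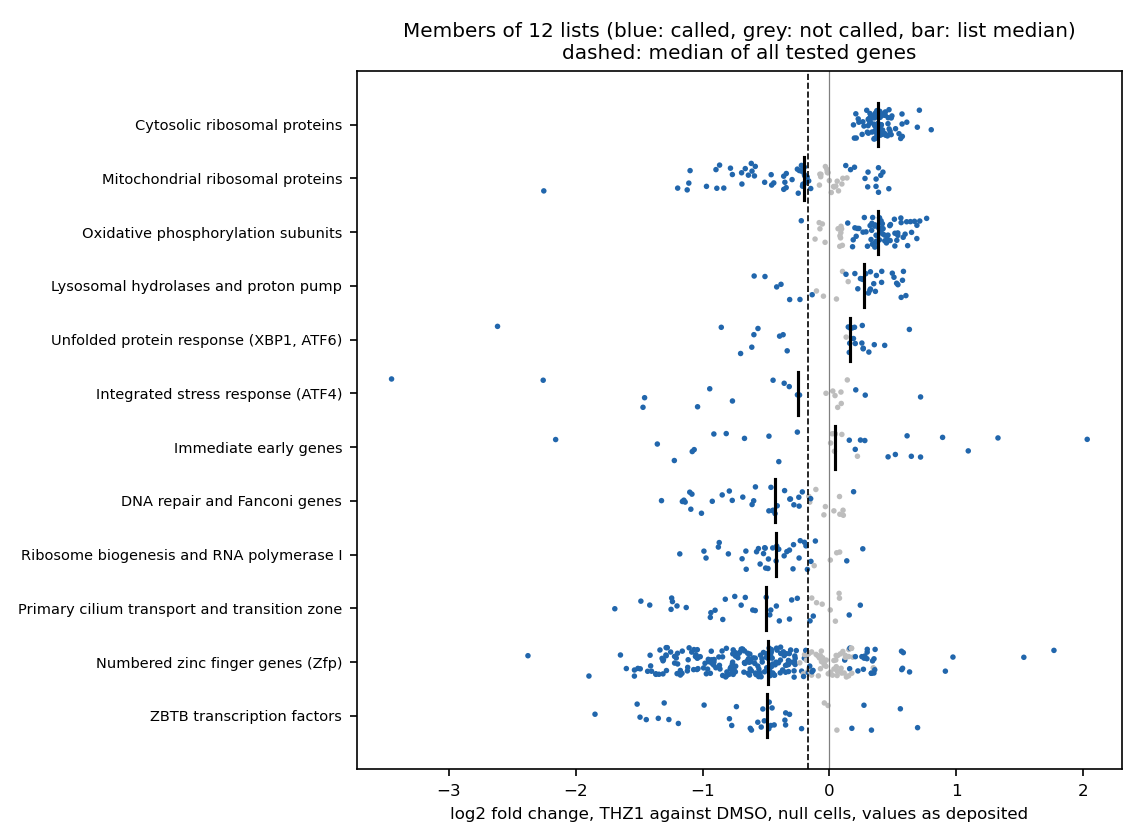
Log2 fold change of single genes (points) in 12 lists, values as deposited, blue where called by limma and grey where not, with a bar at the list median and a dashed line at the median of all tested genes (-0.17). Cytosolic ribosomal protein genes form a narrow group to the right of 0, whereas immediate early, zinc finger and stress response genes spread to both sides; ribosomal protein scaling would move each point by about the same amount to the left.

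Large decreases were more frequent in genes with few exons, a property picked after the values of 8 properties were seen. Genes were matched to GENCODE M21 models of GRCm38 in 10584 cases. Of 199 genes with 1 exon, 47 (23.6%) fell at least 2-fold, against 17.6% of 432 genes with 2 exons, 8.27% of 2044 with 6 to 8 and 3.48% of 1438 with 21 or more. Median changes for these bins were -0.46, -0.35, -0.17 and -0.12 as deposited and -0.31, -0.18, 0.00 and 0.05 by median of ratios. At least 2-fold increases were also most frequent in genes with 1 exon (3.52%) and 2 exons (2.31%), against 0.209% of those with 21 or more. Over the whole range of changes the properties ranked genes weakly. The Spearman correlation with the log2 change across genes was 0.244 for the level under DMSO and 0.121 for the genomic span of the transcript. It was 0.052 for exon number, 0.0512 for the number of ATTTA motifs and -0.0704 for GC percent. It was -0.0201 for transcript length, -0.0433 for coding length and -0.00341 for the length of the 3' UTR. These are descriptions over genes measured in the same libraries. With genes in 3 equal groups by DMSO level, 24.8% of 202 genes with 1 or 2 exons in the middle group fell at least 2-fold, against 9.35% of 3326 with more. In the low group the shares were 19.6% and 10.7%, and in the high group 11.3% and 3.92%. Steep examples with 1 exon, chosen after their values were seen, were Fem1a and Tbcc. Fem1a, a substrate receptor gene of a ubiquitin ligase, fell from 7.58 and 7.95 to 0.93 and 1.18 FPKM (log2 -2.10 ± 0.08 SE, limma adjusted p = 6.46e-10). The tubulin cofactor gene Tbcc fell from 6.23 and 6.46 to 0.65 and 0.92 FPKM (log2 -2.04 ± 0.09 SE, limma adjusted p = 1.58e-09).

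**Figure D5:**
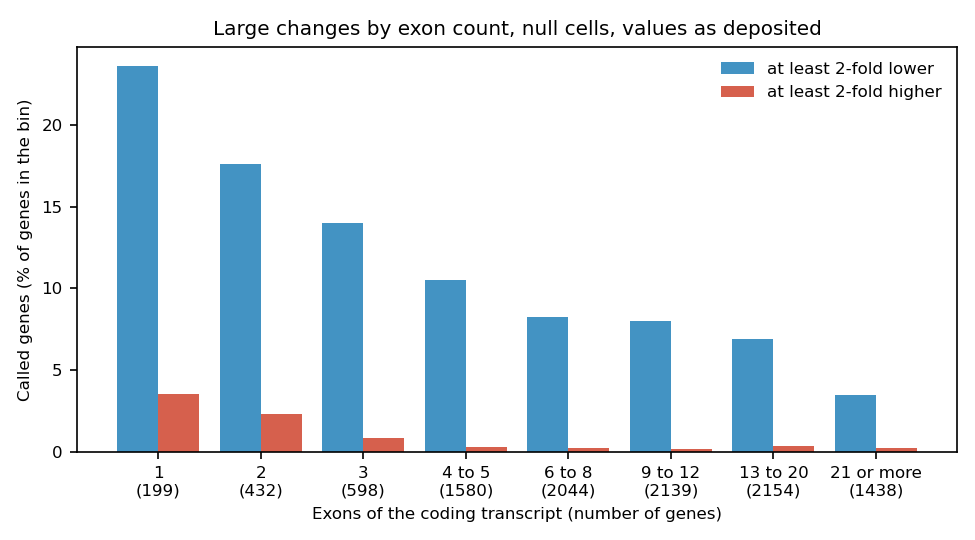
Percent of genes called and at least 2-fold lower (blue) or higher (red) in null cells under THZ1, by the number of exons of the gene's coding transcript (number of genes in brackets). The share that fell goes from 23.6% with 1 exon to 3.48% with 21 or more.

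The heterozygous line, given the same dose for the same time, had a smaller median response. The median absolute log2 change over the 10634 genes was 0.34 in null cells and 0.11 in heterozygous cells. In heterozygous cells 1287 genes were called higher and 1075 lower, with 2 and 4 of them at least 2-fold. The difference between the responses, tested as an interaction, was called in 6432 genes (60.5%). The null change was the more negative in 4807 (45.2%) and the more positive in 1625 (15.3%). Each genotype is 1 line, so an effect of Pkd1 and any other property of the line cannot be told apart.

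The genes with large null changes are set beside their heterozygous values as a description, since they were chosen for their change in null cells. Xbp1 changed by -2.62 in null and -0.53 in heterozygous cells, Srsf3 by -2.17 and -0.32, and Chac1 by -3.45 and -0.72, all on the log2 scale. Mical3 changed by 1.26 in null and 0.01 in heterozygous cells, Ago2 by 1.21 and -0.19, and Junb by 1.33 and 0.15. Of the 15 largest decreases 13 were also called lower in heterozygous cells, and of the 15 largest increases 8 were also called higher. Over all 10634 genes, 1075 were called lower and 1287 higher in heterozygous cells. On the deposited values Hexim1 had a smaller rise in null (0.53) than in heterozygous cells (0.73, limma adjusted p of the difference 0.0491). By median of ratios its null rise was 0.71. Cdk12 rose in both (0.44 and 0.50), and the difference was not called (limma adjusted p 0.636). Over the lists, the interaction was called toward a lower response in null cells for 27 of 41 DNA repair genes, 23 of 37 cilium genes and 30 of 40 ribosome biogenesis genes, against 45.2% over all genes. It was called toward a higher response for 72 of 77 cytosolic ribosomal protein genes and 42 of 75 oxidative phosphorylation genes, against 15.3% over all genes. On the deposited values their heterozygous medians were 0.11 and 0.18 and their null medians 0.38 and 0.38. Ribosomal protein scaling put both null medians at -0.02, and the list counts of the interaction are for the deposited values alone.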

How the data were processed

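Poly(A)-selected RNA of 8 libraries in 4 groups of 2 was sequenced, per the labels' protocols, and the 4 null libraries were compared here. Each deposited file holds 1 FPKM value per Entrez gene, as the authors computed it. The submitters' processing notes name mm10, Bowtie2 and DESeq2 without roles, and for the counting program and its use of strand the sources used here give nothing. No counts were given, so no count test was run. Symbols came from a RefSeq table (GRCm38.p6) for 18592 of 18631 IDs.

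Genes with a mean of at least 1 FPKM over the null libraries were kept. limma 3.58.1 in R 4.3.3 (trend, two-sided, Benjamini-Hochberg over all tested genes) fitted log2(FPKM + 1), with a pseudocount of 1, to 8 libraries with 1 mean per group. Scalings multiplied the deposited FPKM of a library by 1 factor. Just above the limit (1 to 1.25 FPKM, 209 genes) the median log2 change was -0.31, and just below it (0.8 to 1 FPKM, 160 genes) -0.29. The 14 alternatives were the scalings, other pseudocounts and filters, a replicate block, null libraries alone and leaving out each null library.

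Named genes were a set of 12 fixed genes, the 15 largest called increases and decreases with mean log2(FPKM + 1) of at least 3, no overlap between groups and an established symbol, and, of each of 55 gene lists, up to 4 members with the smallest adjusted p and 1 in the other direction. Some genes this rule names are not reported here. The members, lists and tests were chosen with earlier results of these data known. The set of genes called higher under all 5 scalings, for the promoter counts, and the exon bins were chosen after seeing the data.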

Additional observations from a re-analysis of the deposited data

Results flagged for a closer look

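The response to THZ1 differed between the lines, by limma's interaction test, for 38 named genes. These came from 12 genes named for their role and from the 15 largest increases and 15 largest decreases in null cells. Polr2a was named for both its role and its increase. Over all 10634 genes the difference was called in 60.5%. For the genes named for their size of change this choice favours a difference, since the test uses the same null libraries. The values are the null minus the heterozygous log2 change. Of the drug's target complex, Cdk7 (-0.41), Ccnh (-0.28) and Mnat1 (-0.42) fell further in null cells, as did Pkd2 (-0.24) and Mcl1 (-0.42). Hexim1 rose less in null cells (-0.20), and Cdk13 (0.32), Myc (0.25) and Polr2a (0.54) were more positive there. Of the genes named for their role, Pkd1, Cdk9 and Cdk12 had no called difference (limma adjusted p = 0.618, 0.141 and 0.636). All these differences are on the deposited values, where the median gene was at -0.17 in null and 0.01 in heterozygous cells. Differences close to the gap between these medians, such as those of Hexim1, Pkd2 and Ccnh, may change with the scaling.

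Among the largest increases the difference was 1.66 for Cxcl2, 1.40 for Ago2, 1.25 for Mical3, 1.25 for Hipk2, 1.19 for Dcdc2c and 1.18 for Junb. It was 1.16 for Rbm14, 1.08 for Rbm12, 1.06 for Zfp36, 1.05 for Tmem245 and 1.02 for Rbm15. The remaining increases differed by 0.96 (Icam1), 0.77 (Fam83d) and 0.75 (Gon7).

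Among the largest decreases it was -2.08 for Xbp1, -1.93 for Arfgap1, -1.90 for Pimreg, -1.85 for Srsf3, -1.84 for Mus81 and -1.84 for Plekhg2. It was -1.82 for Mavs, -1.79 for Mrps2, -1.78 for Btg2, -1.77 for Rin1, -1.75 for Ccdc9b and -1.73 for Kcnj16. Sh3tc2 (-1.65), Klhdc8a (-1.54) and Krcc1 (-1.34) followed.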

How the results depend on the processing

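Median-of-ratios scaling raised the genes called higher from 2662 to 4039 and those at least 2-fold higher from 44 to 87. Ribosomal protein scaling gave 504 higher, 8460 lower, 19 at least 2-fold higher and 2145 at least 2-fold lower. A pseudocount of 0.1 in place of 1 gave 72 and 1384 genes at least 2-fold higher and lower. A mean of at least 5 FPKM, which left fewer genes to test, gave 595 at least 2-fold lower. Leaving out 1 null library gave 2371 to 2436 genes higher, 4989 to 5284 lower, and 42 to 53 and 815 to 1040 at least 2-fold higher and lower. The remaining library of that group was then assumed to vary like the other groups. No paired design is stated, and replicate numbers did not pair the libraries (r = 0.03 between deviations, 2 numbers). With the replicate block 2699 genes were called higher and 5466 lower. Of 193 genes named, 10 changed sign under a scaling. By ribosomal protein scaling the changes were -0.31 for Cdk9, -0.35 for Myc, -0.0902 for Bard1, -0.13 for Bop1, -0.18 for Cdh16, -0.0121 for Lig1, -0.01 for Psmd2, -0.0027 for Polr2b, -0.0447 for Pdia6 and -0.044 for Rps27. By library totals they were -0.0101 for Cdk9 and -0.0465 for Myc. Ribosomal protein scaling also ended the calls of Glud1, Mdh1, Prkcsh, Mlxip, Mrps21, Med25, Cdk12 and Cdk13, and median of ratios those of Ndufs1 and Ccnh. Without an external standard these files cannot fix the total mRNA per cell, so directions near the median gene depend on the scaling. Read counts were not used, so counting error per gene was not computed, and genes near 1 FPKM rest on few fragments. Genes that overlap a neighbour or have near-identical copies are uncertain, also where this is not said beside their values. Among them are Bop1, which overlaps Scx by 2058 bases, and Psmd10, which overlaps Atg4a by 2867 bases.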

Other observations

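The steepest fall of any tested gene was in Rps27rt, an intronless ribosomal protein gene named here after its value was seen. It was listed at 13.36 and 13.51 FPKM in the null DMSO libraries and at 0 in the other 6 libraries. Rps27, the spliced gene that it closely resembles, had 634.24 and 621.91 FPKM under DMSO and 812.10 and 795.52 under THZ1 in null cells (log2 change 0.36). Reads shared by such copies can be assigned to either, so the Rps27rt value is uncertain, and it belongs to neither of the ribosomal protein lists.

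Besides the TATA box, ETS and GC box motifs, 18 others were searched on both strands of the promoter windows. Their shares in all genes, in genes at least 2-fold lower and in genes higher under all 5 scalings follow in that order. CCAAT was found in 43.8%, 45.8% and 43.9%, TGACG in 37.1%, 38.7% and 40.0%, and the full cAMP response element, which contains it, in 3.75%, 4.99% and 2.21%. CACGTG, the E-box, was found in 12.1%, 10.1% and 11.8%, TGANTCA (AP-1) in 5.71%, 7.14% and 4.66%, and a loose NF-kB motif in 7.35%, 7.41% and 9.07%. A loose ZNF143 motif was found in 5.45%, 7.41% and 3.19%. Motifs in under 4% of all windows were those of E2F, ATF4, XBP1, NRF1, YY1, RFX and SRF, with the endoplasmic reticulum stress element and stricter forms of the ZNF143, NF-kB and SRF motifs. No test was run on these shares.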
